A study of Triticum aestivum with 6 samples.

Results

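The 14 genes described here are the wheat genes on chromosomes 7A, 7B and 7D whose deposited protein match is the tyrosine-sulfated glycopeptide receptor 1 of Arabidopsis, also called the PSY1 receptor. They were chosen by that name and by the chromosome in the gene identifier, out of 83219 genes in the table and 66 genes with the same name. Of the 14 genes, 5 lie on 7A, 4 on 7B and 5 on 7D. The choice was made with the difference between the groups at TraesCS7A02G435000 already known. The differences between groups at these 14 genes are therefore given as a description, from the fit across all genes. No p-value of such a difference is printed, and no call at these genes is read as evidence. RNA-seq was run on roots of wheat seedlings (Triticum aestivum, line JW1, described as wild type). The 2N+ABA group (3 samples) received 2 mM potassium nitrate and 5 µM ABA (abscisic acid, a hormone of drought and other stresses) for 3 h. The 0N+ABA group (3 samples) received potassium chloride in place of the nitrate with the same ABA for the same time, so nitrate and chloride cannot be told apart. Seedlings of both groups had lost the endosperm after 3 days of germination, spent 3 days with 2 mM nitrate and then 2 days without nitrogen. Groups without ABA are named in the series design and were not analysed here, so every value below was measured in the presence of ABA.

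PSY peptides are small secreted growth signals that carry a sulfate on a tyrosine and sugars on a proline. In Arabidopsis they are perceived by leucine-rich repeat receptor kinases of the PSYR group, which are close relatives of the phytosulfokine receptors and, more distantly, of the brassinosteroid receptor BRI1. Work in Arabidopsis links PSY1 signalling to the plasma membrane proton pump and to cell elongation, and describes the receptors as a switch between growth and stress responses that the peptides hold in the growth state. The wheat genes carry the name by sequence match, and whether their proteins bind PSY peptides was not measured.

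Library totals lay between 16907317 and 17735564 estimated counts. In a principal component analysis, component 1 (42.1% of the variance) held every 2N+ABA sample at 38.8 to 59.9 and 0N+ABA replicates 1 and 3 at -63.8 and -74.1, with 0N+ABA replicate 2 in the middle at -1.28. Results are therefore given with and without that library where it matters. The labels name root, with 1 field naming leaf. Of 10 Casparian strip and peroxidase 64 genes, taken as root markers, 9 had counts, with summed levels of 166 to 201 TPM in 2N+ABA and 122 to 204 TPM in 0N+ABA. The 8 tested ones had log2 fold changes of 0.25 to 0.69, and 0 rose or fell by edgeR, DESeq2 or limma-voom, with 2 higher before adjustment (unadjusted p under 0.05), whereas 5 rose without 0N+ABA replicate 2. Of 179 leaf photosynthesis genes, 30 had no count in any library, and the list summed to 194 to 339 TPM in 2N+ABA and 238 to 352 TPM in 0N+ABA, with 0 of 84 tested genes higher and 1 lower by edgeR. TPM is a transcript level scaled for gene length and library size, as the authors deposited it. For root hairs, 10 genes were taken as markers by protein name alone, and all had counts. Whether they mark root hair cells in wheat was not tested. They summed to 77.2 to 81.2 TPM in 2N+ABA and 73.3 to 78.8 TPM in 0N+ABA. Of the 7 tested ones, with log2 fold changes of -0.08 to 1.41, 0 rose or fell by edgeR and limma-voom, 2 rose by DESeq2, and 3 were higher and 0 lower before adjustment, all 3 named ROOT HAIR DEFECTIVE 3 homolog 2. Without 0N+ABA replicate 2, 3 of this list rose by edgeR. Of 109 seed storage protein and serpin genes, 12 had no count, and the list summed to 125 to 130 TPM in 2N+ABA and 86.4 to 107 TPM in 0N+ABA, with 2 of 23 tested genes higher (0 to 1 on leaving out any library other than 0N+ABA replicate 2, and 5 without that one). The part of these marker differences in the results below was not tested. In whole roots, more cells that express a gene and more RNA of it in each cell cannot be told apart.

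Most of these genes form a cluster on each of the 3 chromosomes. Wheat is hexaploid and usually has an A, a B and a D copy of a gene (homoeologs), and identifiers of this annotation number the genes along a chromosome. By identifier, 3 receptor genes lie together on 7A, 4 on 7B and 4 on 7D, and on all 3 chromosomes the next identifier with a listed gene is matched to the calcium-binding protein CML29. Counted from that end, the receptor genes are called position a (TraesCS7A02G435400, TraesCS7B02G335100 and TraesCS7D02G426100), position b (TraesCS7A02G435300, TraesCS7B02G335000 and TraesCS7D02G426000), position c (TraesCS7A02G435000, TraesCS7B02G334900 and TraesCS7D02G425700) and position d (TraesCS7B02G334700 and TraesCS7D02G425600, with none on 7A). Genes matched to histone H4 precede the cluster on 7A and 7B. Which genes are homoeologs is not given in the sources used here, so the positions describe order only. They depend on the end counted from, since 7A has 3 cluster genes and 7B and 7D have 4. Counted from the other end, TraesCS7A02G435000 would line up with TraesCS7B02G334700 and TraesCS7D02G425600. The remaining 3 genes, TraesCS7A02G408300, TraesCS7A02G452500 and TraesCS7D02G401700, are numbered apart from the clusters.

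The 3 genes at position c were several-fold higher in 2N+ABA, and the other genes of the clusters were at similar levels in both groups or nearly without reads. TraesCS7A02G435000 had 2.00, 2.27 and 1.56 TPM in the 2N+ABA libraries, against 0.10, 0.07 and 0.08 TPM in the 0N+ABA libraries. The groups lay far apart, and the gene was close to silent without nitrate, at 5, 4 and 4 estimated counts in 0N+ABA, while 2N+ABA had 109, 122 and 85.4. Its log2 fold change by edgeR was 4.58 (SE 0.284), a 23.9-fold difference, and 33 of the 53862 genes tested had a larger one. It reached the minimum of the count filter only through the 2N+ABA libraries, so among tested genes it was bound to differ.

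TraesCS7B02G334900 had 2.37, 3.03 and 2.19 TPM in 2N+ABA, against 0.39, 0.24 and 0.31 TPM in 0N+ABA. Its log2 fold change was 3.07 (SE 0.232), 8.37-fold, and the lowest 2N+ABA library lay well above the highest 0N+ABA library. TraesCS7D02G425700 had 3.10, 3.60 and 2.76 TPM in 2N+ABA, against 0.76, 0.45 and 0.57 TPM in 0N+ABA. Its log2 fold change was 2.46 (SE 0.209), 5.51-fold, again with no overlap of the groups. The chromosome 7D gene thus had the smallest and the 7A gene the largest log2 fold change of the 3, in the reverse order of their levels in 0N+ABA. Without 0N+ABA replicate 2, the log2 fold changes were 4.52, 2.91 and 2.30 for the 7A, 7B and 7D genes. The spread between libraries of a group was small beside these differences, with coefficients of variation in TPM of 13.4% to 18.4% in 2N+ABA and 18.3% to 26.3% in 0N+ABA.

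In the fit across all genes, 7 of the 14 receptor genes passed the filter on low counts. Of these 7, the 3 genes at position c were called higher (adjusted p under 0.05, edgeR) and 0 were called lower by edgeR, DESeq2 or limma-voom, and 0 were lower before adjustment. Over the whole table, 1.67% of tested genes were called higher, 0.579% lower, and 2.25% in either direction. The groups did not overlap for the same 3 genes, with 2N+ABA higher, and for 0 with 2N+ABA lower. Over all tested genes this held, in CPM (counts scaled to the TMM-adjusted library total), for 11.3% with 2N+ABA higher, 10.8% with it lower and 22.1% in either direction. Because the genes were chosen with this contrast known, nothing is read from these counts.

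**Figure D1:**
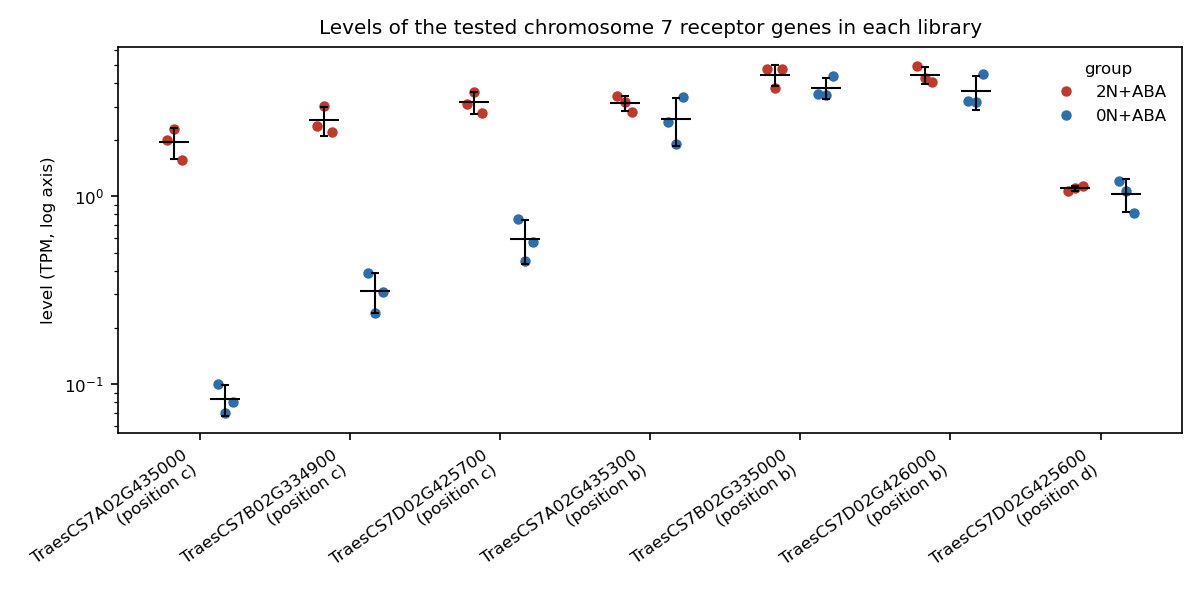
Levels in TPM on a log axis of the 7 receptor genes that passed the count filter, with 1 point for each library, 2N+ABA left of 0N+ABA, and the mean ± SD of the 3 libraries in black. The position c genes lie between 1.56 and 3.60 TPM in 2N+ABA and between 0.07 and 0.76 TPM in 0N+ABA, while the groups of the position b and d genes overlap.

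The unequal fold changes of the 3 position c genes can also be given as shares of the 3 chromosomes. The shares restate the values above, for genes chosen with this contrast known, and are a description only. Of the summed TPM of these 3 genes, the 7A gene held 25.4% ± 1.41 in 2N+ABA and 8.51% ± 0.625 in 0N+ABA (SD, n = 3 each). The 7B gene held 33.1% ± 1.24 in 2N+ABA and 31.7% ± 0.554 in 0N+ABA. The 7D gene held 41.4% ± 0.974 in 2N+ABA and 59.8% ± 0.874 in 0N+ABA. The 7A share was higher and the 7D share lower in each 2N+ABA library than in any 0N+ABA library, while the 7B share stayed within 31.2% to 34.0% in all 6. The 7A share in 0N+ABA rests on 4 or 5 counts a library and on TPM values deposited to 2 decimals. Estimated counts were not whole in 2 of 6 libraries for the 7A gene, 3 of 6 for the 7B gene and 4 of 6 for the 7D gene. Reads shared with similar copies may have been divided among them, which leaves the split among the 3 genes uncertain.

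**Figure D2:**
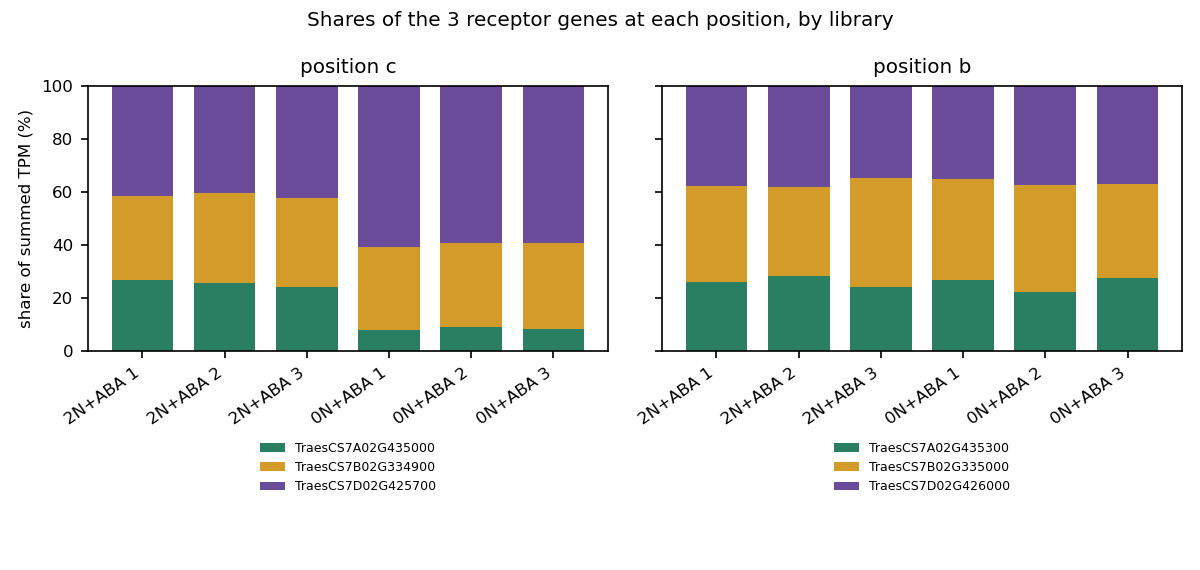
Share in percent of the summed TPM held by the 7A (bottom), 7B (middle) and 7D (top) receptor genes at position c (left) and position b (right), with 1 bar for each library, 2N+ABA left of 0N+ABA. At position c the 7A gene takes 24.0% to 26.8% in 2N+ABA and 8.00% to 9.21% in 0N+ABA, and at position b the 3 shares are alike in both groups.

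The genes at position b had the highest mean TPM of the 14 over all 6 libraries, and their groups overlapped. Within 2N+ABA, TraesCS7D02G425700 of position c, at 3.15 ± 0.423 TPM, was level with TraesCS7A02G435300 of position b, at 3.13 ± 0.304 TPM (SD, n = 3 each). TraesCS7B02G335000 had 4.77, 3.75 and 4.77 TPM in 2N+ABA, against 3.51, 3.46 and 4.36 TPM in 0N+ABA. TraesCS7D02G426000 had 4.92, 4.24 and 4.03 TPM in 2N+ABA, against 3.21, 3.18 and 4.49 TPM in 0N+ABA. TraesCS7A02G435300 had 3.40, 3.19 and 2.80 TPM in 2N+ABA, against 2.49, 1.90 and 3.36 TPM in 0N+ABA. For each of the 3 genes, 0N+ABA replicate 3 was the highest library of its group and reached into the 2N+ABA range. The log2 fold changes were 0.31 (SE 0.147), 0.33 (SE 0.160) and 0.33 (SE 0.199) in that order, and 0 of these genes was called by edgeR, DESeq2 or limma-voom. At this position the 7A gene held 26.2% ± 2.21 of the summed TPM in 2N+ABA and 25.6% ± 2.91 in 0N+ABA (SD, n = 3 each), the 7B gene 37.0% ± 3.82 in 2N+ABA and 38.1% ± 2.40 in 0N+ABA, and the 7D gene 36.8% ± 1.75 in 2N+ABA and 36.3% ± 1.26 in 0N+ABA. The 3 shares thus differed between the groups by less than 1 SD. Estimated counts of the 7A gene were not whole in 6 of 6 libraries, and those of the 7B and 7D genes in 5 of 6 each. The split among these 3 genes is therefore uncertain too.

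At position d, TraesCS7D02G425600 had 1.06, 1.11 and 1.13 TPM in 2N+ABA, against 1.21, 1.07 and 0.81 TPM in 0N+ABA, with a log2 fold change of 0.15 (SE 0.211) and overlapping groups. It is the direct neighbour by identifier of TraesCS7D02G425700, and its estimated counts were not whole in 6 of 6 libraries. The other gene at this position, TraesCS7B02G334700, had 3, 1 and 1 counts in 2N+ABA, against 3, 4 and 3 in 0N+ABA, too few for a test.

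The genes at position a were nearly without reads. TraesCS7A02G435400 had 1 count, in 0N+ABA replicate 2, TraesCS7D02G426100 had 2 counts, in 2N+ABA replicate 3, and TraesCS7B02G335100 had none. In these gene models 1 or 2 reads gave 1.06 and 2.13 TPM, whereas 1 read of TraesCS7A02G452500 gave 0.02 TPM, so their TPM values are not comparable levels. Of the 3 genes outside the clusters, TraesCS7A02G408300 and TraesCS7A02G452500 had at most 1 count in any library and TraesCS7D02G401700 had none. A count of 0 allows up to 3 counts, or 0.169 to 0.177 CPM of the unadjusted library totals, so low expression of these genes was not detectable at this depth. These limits cover counting error only.

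The order of levels per length is given with its spread, since the test of neighbours had little power. By mean TPM over the 6 libraries, the 7 genes with a mean of at least 10 counts ran from TraesCS7B02G335000 (4.10) and TraesCS7D02G426000 (4.01) through TraesCS7A02G435300 (2.86), TraesCS7D02G425700 (1.87), TraesCS7B02G334900 (1.42) and TraesCS7D02G425600 (1.07) to TraesCS7A02G435000 (1.01). Neighbours in the order of all 14 genes were compared within libraries by an exact two-sided sign-flip permutation test on log2(TPM + 0.1), whose smallest p with 6 libraries is 0.0312. Of 13 neighbouring pairs, 2 reached that p before adjustment and 0 after it (Benjamini-Hochberg, exact permutation test, adjusted p = 0.203 for both). An adjusted p under 0.05 would need at least 9 of the 13 pairs at the smallest p, and several pairs had almost no counts, so the count of 0 says nothing on whether neighbours differ. TraesCS7D02G426000 was above TraesCS7A02G435300 in 6 of 6 libraries, by 0.48 ± 0.130 on the log2 scale (SD). TraesCS7D02G425700 was above TraesCS7B02G334900 in 6 of 6 libraries, by 0.52 ± 0.241. TraesCS7B02G335000 and TraesCS7D02G426000 differed by 0.04 ± 0.149, less than their spread. Reads divided among similar copies may affect these levels as well. Within groups the order was not the same: TraesCS7D02G425600 averaged 1.10 ± 0.0361 TPM in 2N+ABA, below all 3 position c genes, and 1.03 ± 0.203 TPM in 0N+ABA, above all 3 (SD, n = 3 each).

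The genes numbered beside the clusters were not called. Of 30 genes with identifiers within 600 of a cluster receptor gene, a list drawn up after their names were seen, 19 were tested and 0 rose or fell by edgeR, DESeq2 or limma-voom, with 1 higher and 3 lower before adjustment. Their median log2 fold change was -0.17, against -0.02 over all genes tested. Named for their place beside the receptors, with values in view, were a CML29 and a histone H4 gene. The CML29 gene TraesCS7A02G435500 had 10.3 ± 1.66 TPM in 2N+ABA and 13.9 ± 2.69 TPM in 0N+ABA (SD, n = 3 each), with a log2 fold change of -0.38 (SE 0.180). The histone H4 gene TraesCS7B02G334600 had 21.0 ± 1.87 TPM in 2N+ABA and 26.8 ± 6.42 TPM in 0N+ABA. TraesCS7D02G425900, matched to a flavin-containing monooxygenase and lying by identifier between the position c and b receptors, had the smallest p of the neighbours, with 0.223 ± 0.0404 TPM in 2N+ABA and 0.477 ± 0.0321 TPM in 0N+ABA (edgeR adjusted p = 0.163).

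**Figure D3:**
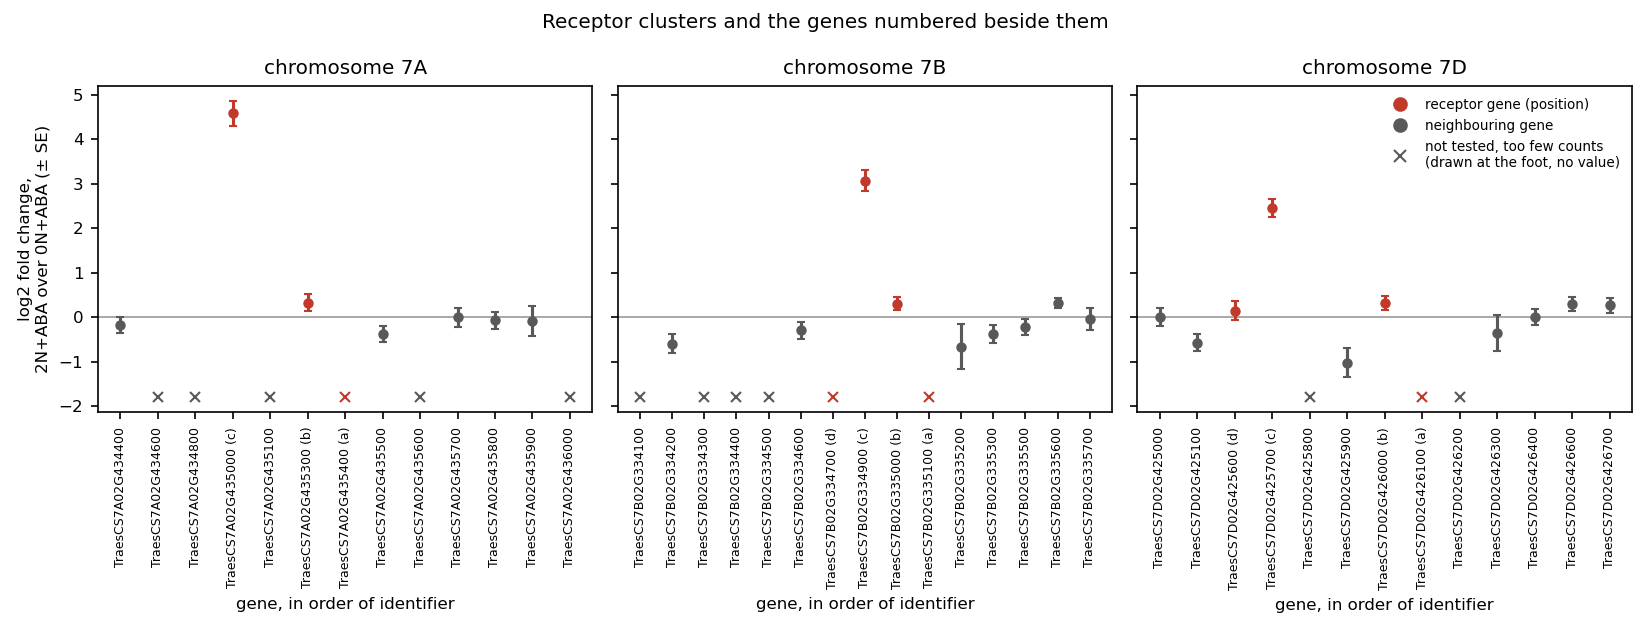
Log2 fold change ± SE, 2N+ABA over 0N+ABA, of receptor genes (red, with their position) and of genes numbered beside them (grey) on chromosomes 7A, 7B and 7D, in order of identifier. Crosses at the foot mark genes with too few counts to test and carry no value. The position c genes stand at 4.58, 3.07 and 2.46, and tested neighbours between -1.02 and 0.33.

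Another 52 genes carry the same receptor name on other chromosomes, 16 on 6A, 18 on 6B, 17 on 6D and 1 on 4D. Of these, 19 were tested and 0 rose or fell by edgeR, DESeq2 or limma-voom, with 0 higher and 1 lower before adjustment, and a median log2 fold change of -0.25. Without 0N+ABA replicate 2, 1 gene fell. Their levels were low: TraesCS6A02G124500, named after values were seen because it had the highest mean of them, had 1.25 ± 0.131 TPM in 2N+ABA and 1.30 ± 0.191 TPM in 0N+ABA (SD, n = 3 each). The smallest p was that of TraesCS6B02G153700, with 0.127 ± 0.0493 TPM in 2N+ABA and 0.263 ± 0.0586 TPM in 0N+ABA (log2 fold change -0.99, SE 0.373, edgeR adjusted p = 0.236).

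Summed over genes, the 3 position c receptors reached 7.47, 8.90 and 6.51 TPM in 2N+ABA, against 1.25, 0.76 and 0.96 TPM in 0N+ABA. The 3 position b receptors summed to 13.1, 11.2 and 11.6 TPM in 2N+ABA, against 9.21, 8.54 and 12.2 TPM in 0N+ABA. The 52 genes on other chromosomes summed to 9.10, 7.49 and 9.57 TPM in 2N+ABA, against 8.41, 10.1 and 10.1 TPM in 0N+ABA. Position c thus supplied 25.4% ± 5.12 of the summed TPM of all 66 same-named genes in 2N+ABA and 4.55% ± 1.44 in 0N+ABA (SD, n = 3 each). The summed TPM of position b and that of the other chromosomes overlapped between the groups. As a share of all 66 genes, the other chromosomes held 28.8% ± 2.44 in 2N+ABA and 43.3% ± 2.84 in 0N+ABA. That total includes the position c genes, chosen with this contrast known, and their higher level in 2N+ABA lowers every other share. The share of the other chromosomes is therefore not a separate result.

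Genes for the other steps of sulfated peptide signalling were given from lists of protein names. Phytosulfokine receptors, the closest relatives of the PSY receptors, had 31 tested genes of 51, of which 0 rose or fell by edgeR, DESeq2 or limma-voom, with 4 higher and 4 lower before adjustment. Their median log2 fold change was -0.05. The phytosulfokine receptor 2 gene TraesCS5D02G525700 had 1.65 ± 0.422 TPM in 2N+ABA and 3.50 ± 0.998 TPM in 0N+ABA (SD, n = 3 each, log2 fold change -1.02, SE 0.264, edgeR adjusted p = 0.0956), and TraesCS5B02G572200 of the same name had a log2 fold change of -1.02 (SE 0.276, edgeR adjusted p = 0.108). The phytosulfokine receptor 1 gene TraesCS6A02G044700 had a log2 fold change of 0.76 (SE 0.246, edgeR adjusted p = 0.173). Without 0N+ABA replicate 2, 1 of these receptors rose and 3 fell.

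Of the peptide precursors, 5 genes were matched, all to phytosulfokines and none to PSY peptides, and 1 was tested. TraesCS2D02G256900, matched to phytosulfokines 4, had 5.74 ± 0.307 TPM in 2N+ABA and 4.82 ± 2.40 TPM in 0N+ABA, a difference within the spread of 0N+ABA (edgeR adjusted p = 0.734). The 5 genes summed to 19.4 to 23.0 TPM in 2N+ABA and 10.3 to 18.9 TPM in 0N+ABA. The highest mean of the 5 over all libraries, 11.4 TPM, belonged to a gene with too few counts to test. These sums thus rest in part on few reads. Tyrosylprotein sulfotransferase, which puts the sulfate on PSY, phytosulfokine and related peptides, has 3 genes in the table, on 7A, 7B and 7D, and all were tested and expressed. TraesCS7B02G012400 had 6.51 ± 0.514 TPM in 2N+ABA and 7.91 ± 0.832 TPM in 0N+ABA (SD, n = 3 each). The log2 fold changes were -0.23 (SE 0.122), -0.27 (SE 0.148) for TraesCS7D02G110400 and -0.11 (SE 0.112) for TraesCS7A02G116200, and 0 rose or fell by edgeR, DESeq2 or limma-voom, with 0 at an unadjusted p under 0.05. The 3 sulfotransferase genes summed to 14.9 to 15.9 TPM in 2N+ABA and 16.2 to 20.2 TPM in 0N+ABA, without overlap. Adenylyl-sulfate kinase makes the sulfate donor of that reaction. Of its 8 tested genes 0 rose or fell by edgeR, DESeq2 or limma-voom, 0 at an unadjusted p under 0.05, and log2 fold changes lay between -0.25 and 0.35.

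Plasma membrane proton ATPases, which acidify the cell wall and are reported targets of PSY1 signalling in Arabidopsis, had 14 tested genes of 24. By edgeR and limma-voom 0 rose or fell, DESeq2 called 3 rises, and 3 were higher and 1 lower before adjustment. The largest levels belonged to 3 genes matched to ATPase 2. TraesCS2B02G530500 had 312 ± 38.4 TPM in 2N+ABA and 217 ± 9.83 TPM in 0N+ABA (SD, n = 3 each, log2 fold change 0.58, SE 0.134, edgeR adjusted p = 0.0712). TraesCS2A02G502400 had 222 ± 26.8 TPM in 2N+ABA and 155 ± 2.37 TPM in 0N+ABA (log2 fold change 0.57, SE 0.133, edgeR adjusted p = 0.072), and TraesCS2D02G503000 had 159 ± 9.01 TPM in 2N+ABA and 125 ± 7.82 TPM in 0N+ABA (log2 fold change 0.40, SE 0.114, edgeR adjusted p = 0.123). The summed level of the list was 626 to 762 TPM in 2N+ABA and 493 to 530 TPM in 0N+ABA, without overlap, and 2 of the genes rose without 0N+ABA replicate 2.

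SERK and BAK1 kinases, co-receptors of many leucine-rich repeat receptors, had 16 tested genes with log2 fold changes between -0.27 and 0.15, and 0 rose or fell by edgeR, DESeq2 or limma-voom (0 at an unadjusted p under 0.05). The BAK1 gene TraesCS6B02G223700 had 7.11 ± 0.538 TPM in 2N+ABA and 6.79 ± 0.135 TPM in 0N+ABA (SD, n = 3 each). The BRI1 family of brassinosteroid receptors had 9 tested genes with log2 fold changes between -0.11 and 0.40, and again 0 rose or fell by edgeR, DESeq2 or limma-voom (0 at an unadjusted p under 0.05). Its smallest p was that of the BRL1 gene TraesCS5A02G177300, with 4.19 ± 0.455 TPM in 2N+ABA and 3.29 ± 0.917 TPM in 0N+ABA (edgeR adjusted p = 0.371).

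Receptors of other signalling peptides had 72 tested genes, with log2 fold changes centred on a median of -0.04. By edgeR 1 rose and 2 fell, DESeq2 called 1 rise and 3 falls, limma-voom 1 rise and 0 falls, while 6 were higher and 9 lower before adjustment. TraesCS1D02G116000, matched to GSO1, which in Arabidopsis perceives peptides that seal the Casparian strip, rose to 3.42 ± 0.249 TPM in 2N+ABA, against 2.04 ± 0.185 TPM in 0N+ABA (log2 fold change 0.80, SE 0.131, edgeR adjusted p = 0.0225). TraesCS3B02G420500, matched to CEPR2, a receptor of C-terminally encoded peptides that report nitrogen shortage in Arabidopsis, fell to 2.22 ± 0.404 TPM in 2N+ABA, against 4.17 ± 0.710 TPM in 0N+ABA (log2 fold change -0.86, SE 0.175, edgeR adjusted p = 0.0477). TraesCS2A02G453300, matched to FERONIA, a receptor of rapid alkalinization factors, fell to 4.56 ± 1.09 TPM in 2N+ABA, against 9.25 ± 1.55 TPM in 0N+ABA (log2 fold change -0.97, SE 0.197, edgeR adjusted p = 0.0479). All 3 calls were lost by edgeR on leaving out any 1 of the 6 libraries other than 0N+ABA replicate 2. Without that library, 5 of these receptors rose and 8 fell.

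**Figure D4:**
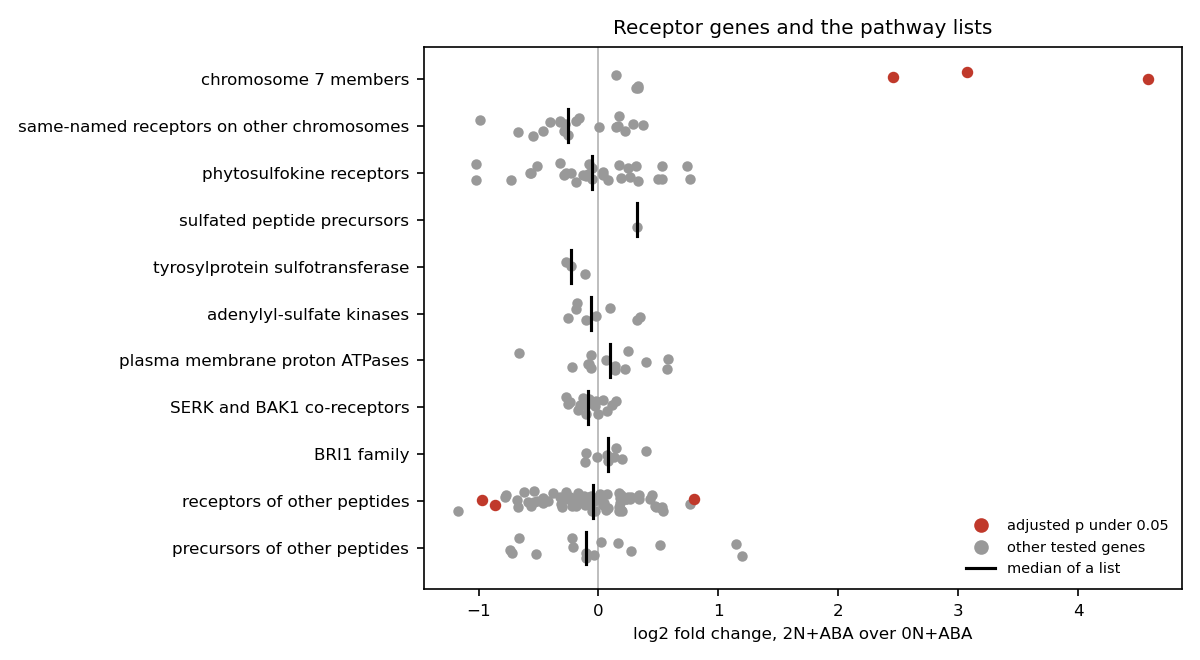
Log2 fold change, 2N+ABA over 0N+ABA, of every tested gene of the chromosome 7 receptors and of each list, with genes called at an adjusted p under 0.05 in red and the median of each list as a black bar. The position c receptors lie at 2.46, 3.07 and 4.58, and the 3 called genes among receptors of other peptides at 0.80, -0.86 and -0.97.

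The genes whose pattern over the 6 libraries was most like that of TraesCS7A02G435000 were ranked by Pearson's r of log2(CPM + 1), among 39711 genes with a described protein and a mean of at least 1 CPM. The difference between the groups sets most of such an r, and 573 candidates, 1.44%, had an r above 0.95. The 6 most alike, with 1 gene for each protein name, had r between 0.9986 and 0.9999 over 6 libraries. They were a root ferredoxin-NADP reductase (TraesCS5D02G431300), which passes electrons to ferredoxin, a ferredoxin-nitrite reductase (TraesCS6A02G333900), which reduces nitrite to ammonium, and an uroporphyrinogen-III C-methyltransferase (TraesCS3D02G225500), which makes its siroheme cofactor. The others were the partner protein NAR2.1 of nitrate transporters (TraesCS6D02G193200), a nitrate transporter NRT2.1 (TraesCS6B02G044000) and a plastid glucose-6-phosphate dehydrogenase (TraesCS2A02G067800), which supplies reductant. Their levels lay far above that of the receptor: the nitrite reductase gene TraesCS6A02G333900 had 85.9 ± 21.4 TPM in 2N+ABA and 4.74 ± 0.456 TPM in 0N+ABA (SD, n = 3 each). Among the receptors themselves, r with TraesCS7A02G435000 was 0.99 or more for the other two position c genes, and 0.61, 0.66 and 0.70 for the 7A, 7B and 7D genes at position b.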

How the data were processed

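Libraries were poly(A)-selected and primed with random N6 primers, and no molecular identifiers are described, per the labels' protocols. The tools listed are HISAT and Bowtie2, with no version, per the submitters' processing notes. For the counter, the genome build, the annotation and the use of strand, the tool or setting is not given in the sources used here. Estimated counts per gene and sample, not normalized, and TPM and FPKM values, scaled for length, were deposited by the authors, per the file headers. The table has 2 further columns, of other groups, which were left out. Of the gene identifiers, 0 matched the available RefSeq gene table, so no coordinates are given.

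Estimated counts were rounded to whole numbers. The test was that of edgeR 4.0.16, run in R 4.3.3 (filterByExpr, TMM, glmQLFit and glmQLFTest, no covariate), 2N+ABA against 0N+ABA, with Benjamini-Hochberg adjustment over 53862 genes, which held 99.61% of the counts. Standard errors were the log2 fold change divided by the square root of the F statistic. Levels are the deposited TPM, as mean ± SD of 3 samples. A gene rose or fell at an adjusted p under 0.05. DESeq2 1.42.0, limma-voom (limma 3.58.1), other scaling, no filter, a replicate block and leaving out each library were alternatives, with FPKM and a pseudocount of 1 for the order of levels. The edgeR step was tested on simulated data.

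The receptor genes and all lists were chosen with earlier results of these data known. The name patterns of 2 lists had caught other proteins and were corrected after values were seen. Genes named are all receptor genes, up to 3 of a list by smallest p, and the 6 most alike in pattern. Exceptions are stated where they occur. Nothing in the labels ties samples to separate cultures or plants. The p-values therefore reflect the sample-to-sample spread alone, and this may be technical. Counts of reads are not counts of independent molecules.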

Additional observations from a re-analysis of the deposited data

How the results depend on the processing

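As a description only, since these genes were chosen with this contrast known and TraesCS7A02G435000 passed the filter through 2N+ABA alone, the 3 position c receptors were the receptor genes called under the 11 alternatives, beside 2.25% of all tested genes by edgeR. Their log2 fold changes lay between 4.42 and 4.73 (TraesCS7A02G435000), 2.88 and 3.26 (TraesCS7B02G334900) and 2.30 and 2.67 (TraesCS7D02G425700). Of the uncalled receptors, TraesCS7D02G425600 changed sign without 0N+ABA replicate 3, at -0.0041, and leaving out 1 library gave up to 0.28. The count of called genes over the whole table, 1210, was 2262 with DESeq2 and 723 with the replicate block, and ran from 283 to 4607 on leaving out 1 library, above 1210 only without 0N+ABA replicate 2. Replicate numbers are shared between the groups, but same-numbered samples had correlations of 0.0757, -0.229 and -0.217 between their deviations from the group means, and no sample correlated best with its own number, so they were not taken as pairs. The count over the pathway lists was 3 (1 rise and 2 falls). It was 8 with DESeq2, 1 with limma-voom and 6 with no filter on low counts. With the replicate block it was 1, a rise of the precursor gene TraesCS2A02G114200, with 0 among receptors of other peptides. On leaving out 1 library it ran from 0 to 22, with 22 without 0N+ABA replicate 2. In the other lists, the replicate block gave 1 rise among root hair genes and 3 among seed genes, against 0 and 2 without it. Among receptor kinases it gave 11 rises and 1 fall, against 18 and 7. The cause of these shifts was not tested. Of the neighbours in the order of levels, 0 passed with TPM, FPKM or a pseudocount of 1, and 0 of 6 pairs among the 7 genes with a mean of at least 10 counts, a comparison added after seeing the data. At least 9 of 13 or 4 of 6 pairs at the smallest p would be needed to pass, so these counts of 0 show no stability. With 5 libraries the smallest p of that test is 0.0625. Depth limits the 7 untested receptors, each under 10 counts in every library, and TraesCS7A02G435000 in 0N+ABA.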

Other observations

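Among all other genes named as receptor kinases, 1567 were tested, of which 18 rose and 7 fell by edgeR. These calls made 1.60% of them, beside 2.25% over all tested genes. The median log2 fold change of the 1567 genes was -0.03. Their log2 fold changes lay between -1.66 and 4.72, the largest above the 4.58 of TraesCS7A02G435000. The smallest p-values belonged to genes of other receptor classes. TraesCS6D02G351500, matched to the proline-rich receptor kinase PERK2, rose to 13.2 ± 1.23 TPM in 2N+ABA, against 3.55 ± 0.190 TPM in 0N+ABA (SD, n = 3 each, log2 fold change 1.95, SE 0.131, edgeR adjusted p = 0.000297). TraesCS6B02G403900, of the same name, rose to 27.7 ± 0.887 TPM in 2N+ABA, against 13.0 ± 0.923 TPM in 0N+ABA (edgeR adjusted p = 0.00168). TraesCS3A02G341800, matched to the leucine-rich repeat kinase At1g06840, rose to 1.36 ± 0.151 TPM in 2N+ABA, against 0.157 ± 0.0709 TPM in 0N+ABA (log2 fold change 3.14, SE 0.308, edgeR adjusted p = 0.00207). Like TraesCS7A02G435000, this gene passed the count filter through the 2N+ABA libraries, with 9, 12 and 4 counts in 0N+ABA. The 18 rises and 7 falls were 63 and 65 without 0N+ABA replicate 2, and 7 to 10 rises and 0 or 1 falls on leaving out any other library. DESeq2 called 33 rises and 17 falls, limma-voom 18 and 4, and edgeR with the replicate block 11 and 1.

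Precursors of other signalling peptides had 15 tested genes, and 0 rose or fell by edgeR and limma-voom. DESeq2 called 1 rise, and 4 were higher and 2 lower before adjustment. By edgeR, 1 rose with the replicate block and 2 rose without 0N+ABA replicate 2. The rapid alkalinization factor gene TraesCS2A02G114200 had 25.0 ± 6.42 TPM in 2N+ABA and 11.3 ± 4.10 TPM in 0N+ABA (SD, n = 3 each, log2 fold change 1.20, SE 0.304). Its edgeR adjusted p was 0.0902, with 0.0497 under the replicate block and 0.0247 without 0N+ABA replicate 2.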
